A study of Mus musculus with 6 samples.

Results

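Kcnf1 and a small set of potassium channel genes known from T cells were followed in resting CD4 T cells with and without Trim28. The set lists 6 genes: Kcnf1, Kcna3, Kcna2, Kcnn4, Kcnab2 and Kcnk5. They were chosen by symbol with the difference between knockout and wild-type values already known, Kcnf1 for its rise, so that difference is given for them as a description and without a p-value. The deposited table holds 19048 transcript rows that name 16911 gene symbols, and 5 of the 6 genes have a row. Kcnab2, which encodes an intracellular beta subunit of Kv1 channels, was not analysed here.

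The libraries hold RNA of naive CD4 T cells, helper T cells that have not met antigen, which had been enriched with magnetic beads and sorted by flow cytometry. All mice were of the C57BL/6 strain. Libraries WT1, WT2 and WT3 came from littermates labelled wild-type, and KO1, KO2 and KO3 from mice labelled Trim28 KO. The sources used here give neither the age of the mice nor the promoter or Cre line behind the deletion, nor whether each library is a separate mouse. The p-values then measure only the spread between these libraries, part of which may be technical.

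A T cell keeps its inside electrically negative by letting potassium leave through channels in the plasma membrane. That potential drives calcium entry through Orai1 channels after the T cell receptor is engaged, so potassium channels set how strongly and how long calcium signals last. Kcna3 (Kv1.3) opens with voltage and Kcnn4 (KCa3.1) with intracellular calcium, and they are the best known potassium channels of T cells. Kcna2 (Kv1.2) is a close relative of Kcna3 that is best known from axons and can join it in the same tetramer. Kcnk5 (TASK-2) is a tandem-pore leak channel opened by alkaline pH and studied in volume regulation. Kcnf1 (Kv5.1) is an electrically silent subunit, found mainly in the nervous system: it forms no working channel alone and modifies channels of the Kv2 family when it assembles with them.

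The values used here are normalized read counts, which are reads divided by a size factor of the library, and the depth was 22005759 to 44372701 reads per library. Trim28 was at 8287 to 9428 in the wild-type libraries and at 628 to 1247 in the knockout libraries, the order that the labels give. KO3 stood apart from the other libraries: summed markers of B cells were at 2280 there and at 392 to 566 in the other 5, and markers of CD8 T and NK cells at 9128 and at 3435 to 4118. Y-linked reads were at 13620 in WT1 and 12680 in KO2 and at 2.39 or below in the other 4. Within each group, then, not all libraries came from the same mice. Markers of naive CD4 T cells (11 of 14 listed have a row) summed to 199000 to 212800 in wild-type and 167800 to 200700 in knockout libraries. In a population of cells, fewer cells that express a gene and less RNA per cell cannot be told apart.

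The pore of a potassium channel holds a short signature that selects potassium ions. Coding sequence around that signature is shown to place Kcnf1 among the expressed channel genes, since a silent subunit might be thought to lack it. Each window has 60 bases of the GENCODE release M21 transcript that the table's row is paired with, in mm10 coordinates and 5′ to 3′ on the coding strand, and capitals mark the 18 bases of the signature. The windows lie at chr12:17175037-17175096 on the minus strand for Kcnf1, chr3:107105203-107105262 (plus) for Kcna2, chr3:107037590-107037649 (plus) for Kcna3 and chr7:24379177-24379236 (plus) for Kcnn4, each inside 1 coding exon.
Kcnf1: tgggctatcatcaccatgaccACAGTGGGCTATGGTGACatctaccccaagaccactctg
Kcna2: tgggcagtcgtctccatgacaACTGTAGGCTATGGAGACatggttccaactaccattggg
Kcna3: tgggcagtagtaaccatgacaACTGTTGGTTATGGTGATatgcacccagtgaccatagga
Kcnn4: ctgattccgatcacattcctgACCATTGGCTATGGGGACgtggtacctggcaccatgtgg

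Kcnf1 carries the signature, at codons 382 to 387. Over the 60 bases its window matched that of Kcna2 at 42 positions, Kcna3 at 40 and Kcnn4 at 30. The closest pair within the set was Kcna2 and Kcna3, with 45 matching positions. Their whole transcripts shared no identical stretch longer than 29 bases, and the longest stretch shared by Kcnf1 with any of the other 4 genes was 16 bases, against reads of 100 bases. How reads that matched several places were treated was not stated in the labels.

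The genes differ in structure. Kcnf1 (row NM_201531, chromosome 12, 17172100 to 17176888, minus strand) and Kcna3 (NM_008418, chromosome 3, 107036162 to 107038129) each consist of 1 exon. Their paired transcripts have 4789 and 1902 bases, of which 2604 and 64 are 3′ untranslated. The annotated span of Kcna2 (NM_008417) begins 52.8 kb beyond Kcna3 on the same strand. The paired Kcna2 transcript has 3 exons and codes in 1 of them, and 9404 of its 11582 bases are 3′ untranslated. Kcnn4 (NM_001163510, chromosome 7) has 9 exons and Kcnk5 (NM_021542, chromosome 14) has 5. An antisense gene, Gm27008, reaches over Kcna3 and the start of the annotated Kcna2 span, but none of its annotated exons covers an exon of either transcript. The non-coding gene A930002I21Rik, on the strand of Kcna2, also lies over the start of that span. None of its annotated exons covers an exon of the paired Kcna2 transcript. No annotated gene overlaps Kcnf1.

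Sequence upstream of the annotated starts also differed between the genes. The 250 bases before the RefSeq start (GRCm38.p6, the assembly of mm10) are shown for Kcnf1, at chr12:17176889-17177138 on the minus strand, and for Kcna2, at chr3:107101317-107101566 on the plus strand, because these are the members with the highest knockout to wild-type ratio among those that did not rest on 1 library. The Kcna2 start of that table lies inside the span of the Kcna2 row and not at its first base. The windows are written 5′ to 3′ and capitals mark each CG dinucleotide.
Kcnf1: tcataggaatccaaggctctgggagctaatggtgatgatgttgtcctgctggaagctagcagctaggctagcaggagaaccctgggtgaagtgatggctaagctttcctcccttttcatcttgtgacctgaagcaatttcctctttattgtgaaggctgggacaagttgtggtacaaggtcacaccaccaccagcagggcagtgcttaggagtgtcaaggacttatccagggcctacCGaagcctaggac
Kcna2: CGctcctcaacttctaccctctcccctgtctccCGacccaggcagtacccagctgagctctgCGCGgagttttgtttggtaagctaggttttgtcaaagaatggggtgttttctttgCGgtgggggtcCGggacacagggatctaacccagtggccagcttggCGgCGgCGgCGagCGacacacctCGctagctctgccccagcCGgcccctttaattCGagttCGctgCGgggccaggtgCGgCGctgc

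The Kcnf1 window held 1 CG and the Kcna2 window 18. CG is its own reverse complement, so a count on 1 strand covers both. Kcna3 had 31, Kcnk5 19 and Kcnn4 6. The 32851 windows of the same length in the RefSeq promoter table had a median of 6. Of these 18.8% held at most 1 CG and 92.1% at least 1, while 21.7% held at least 18 and 5.2% at least 31. Whether reads of these genes begin at the annotated starts cannot be read from a table of counts.

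Kcnf1 was nearly silent in wild-type cells and well detected in every knockout library. Its normalized read count was 4.18 in WT1, 6.60 in WT2 and 8.50 in WT3, which are 3, 6 and 11 reads. The knockout libraries KO1, KO2 and KO3 had 791, 1701 and 832, from 1108, 1167 and 1044 reads. The lowest knockout value was far above the highest wild-type value, and within the knockout KO2 had more than the other libraries. The group means were 6.43 ± 2.16 and 1108 ± 514 (SD, n = 3 per group), a ratio of 172. The log2 fold change on the scale of the normalized count plus 1 was 7.17 (SE 0.35). KO2 is also the knockout library with Y-linked reads: between it and WT1 the ratio was 407, and between the 2 knockout and 2 wild-type libraries with nearly no Y-linked reads it was 108. The part of those reads in the difference was not tested.

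**Figure D1:**
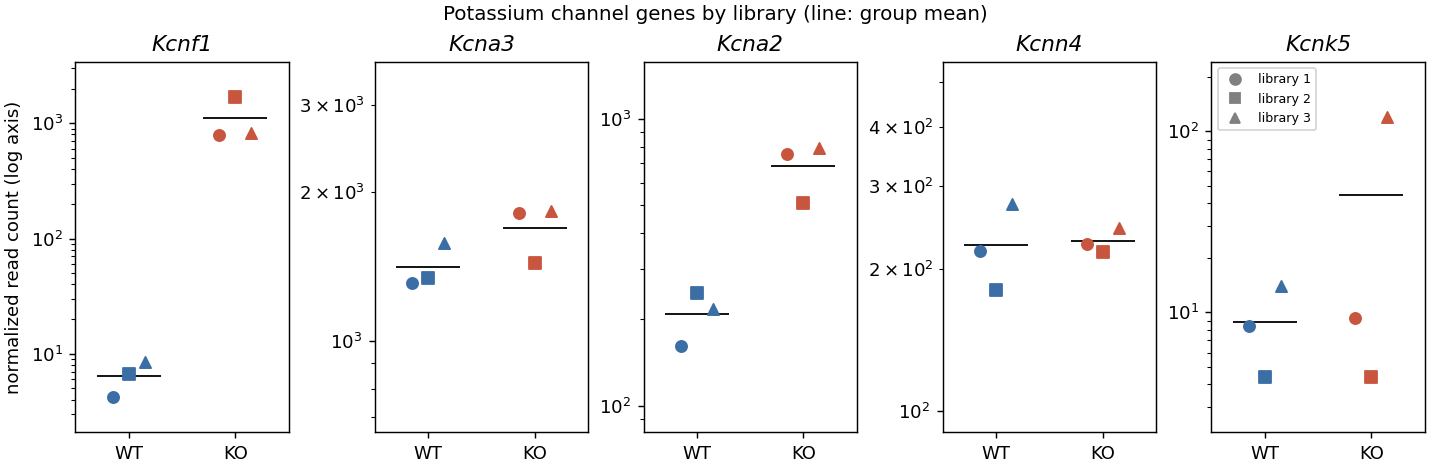
Normalized read count of 5 potassium channel genes in each library, on a log axis with its own range in each panel; symbols mark the library number and the line is the group mean (n = 3). Kcnf1 lies at 4.18 to 8.50 in WT and 791 to 1701 in KO, Kcna2 also has groups that do not overlap, Kcna3 and Kcnn4 have groups that do, and Kcnk5 is high in KO3 only.

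Kcna2 was the other member whose groups did not overlap. It was at 162 in WT1, 248 in WT2 and 218 in WT3. KO1, KO2 and KO3 had 755, 509 and 790, so each knockout library had more than any wild-type library. The means were 209 ± 43.6 and 685 ± 153 (SD, n = 3 per group), a ratio of 3.28 and a log2 fold change of 1.70 (SE 0.21). The ratio was 3.14 between KO2 and WT1 and 3.32 in the libraries with nearly no Y-linked reads. KO2, the highest knockout library for Kcnf1, was the lowest for Kcna2.

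Kcna3, the main voltage-gated potassium channel of T cells, had groups that overlapped. It was at 1307 in WT1, 1336 in WT2 and 1577 in WT3, and KO1, KO2 and KO3 had 1813, 1432 and 1829. KO2 lay below WT3, and KO1 and KO3 lay above all wild-type libraries. The means were 1407 ± 149 and 1691 ± 224 (SD, n = 3 per group), and the difference was a log2 fold change of 0.26 (SE 0.13). Its ratio was 1.10 between KO2 and WT1 and 1.25 in the libraries with nearly no Y-linked reads.

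The level of Kcna2 relative to that of its neighbour and partner Kcna3 was different in each group of libraries. The ratio of the normalized read counts, which is not corrected for transcript length, was 0.124, 0.185 and 0.138 in WT1, WT2 and WT3. It was 0.417, 0.355 and 0.432 in KO1, KO2 and KO3. The ratio is taken within a library and so does not depend on its size factor.

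Kcnn4, the calcium-activated channel, had nearly the same mean in both groups. It was at 219, 180 and 275 in WT1, WT2 and WT3 and at 226, 217 and 245 in KO1, KO2 and KO3, with all knockout values inside the wild-type range. The means were 225 ± 47.5 and 229 ± 14.1 (SD, n = 3 per group), and the log2 fold change was 0.05 (SE 0.17). That difference had the opposite sign under quantile normalization, without WT2 and without KO3.

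Kcnk5 was low in 5 libraries and high in KO3 alone. It was at 8.37, 4.40 and 13.9 in WT1, WT2 and WT3, at 9.28 in KO1 and 4.37 in KO2, and at 120 in KO3. The log2 fold change of 1.05 (SE 1.06) rests on that library, and without KO3 the gene did not reach the mean of 10 needed for testing. Among the other tandem-pore genes, Kcnk6 had the same library highest, with 72.5 in KO3 and 17.5 to 32.4 elsewhere, while Kcnk7 was at 35.1 in KO3 and 23.7 to 41.8 elsewhere.

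The summed markers of 4 other kinds of cells were also highest in KO3, although single markers were not all so. Of 10 listed B cell markers 10 had a row, with Ebf1 (0.80 in KO3) and Fcer2a (5.58) near 0 and Cd79b at 634, against 46.6 to 87.8 in the other libraries. The myeloid list (9 of 10 with a row) summed to 2461 in KO3 and to 105 to 943 in the others, with Cd14 at 0 in KO3. Of that sum Mpo made up 1737, and without Mpo the list was at 724 in KO3 and 715 in WT1. S100a8 (311 in WT1 and 96.4 in KO3) and S100a9 (48.8 and 16.7) were higher in WT1. The dendritic cell list (9 of 10) summed to 6324 and to 1475 to 2682, and the CD8 T and NK list, 10 of 10, to 9128 and 3435 to 4118. In these lists Zbtb46 (117 in KO1 and 58.2 in KO3) and Prf1 (2499 and 1671) were higher in KO1. The part of such cells in the Kcnk5 value was not tested. Between KO2 and WT1 the Kcnk5 ratio was 0.523, and in the libraries with nearly no Y-linked reads, KO3 among them, it was 7.08.

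**Figure D2:**
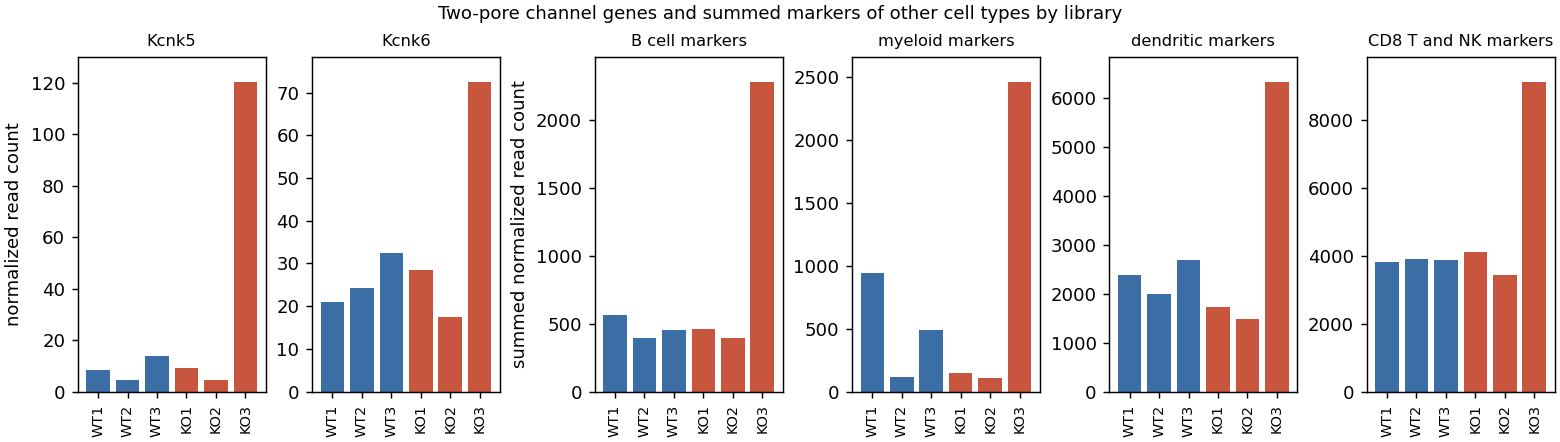
Normalized read count of Kcnk5 and Kcnk6 and summed normalized read count of 4 marker lists in each library (blue WT, red KO; bars start at 0). Kcnk5 is at 120 in KO3 and at most 13.9 elsewhere, and all 4 marker sums are highest in KO3.

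Of the 5 members, Kcnf1 and Kcna2 had knockout values above all wild-type values, which 9.21% of the 13022 tested rows had, and no member had the reverse order, which 9.58% had. The members were picked with these values known, so nothing is read from their count. Over all tested rows, limma called 1.51% at an adjusted p under 0.05, 1.19% as higher and 0.315% as lower, and the genes that are no members are set beside these shares. All 5 passed the filter, a mean over the 6 libraries of at least 10, Kcnf1 only through its knockout libraries and Kcnk5 only through KO3.

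Levels of different genes were compared per kilobase of the paired transcript. In wild-type cells Kcna3 stood first among the potassium channel genes with a row, at 740 ± 78.1 normalized reads per kilobase (SD, n = 3), and its lowest library was above the highest of any other. The next were Kcnmb4, a beta subunit of the large-conductance calcium-activated channel, at 264 ± 37.2 and the inward rectifier Kcnj13 at 212 ± 28.4, whose ranges overlapped. Kcnn4, at 113 ± 23.9, overlapped with the eag-related gene Kcnh6, at 110 ± 16.7, and Kcnh2 followed at 76.6 ± 11.4. With the longest annotated transcript as length Kcnn4 was at 61.8 and at rank 6, below Kcnh2. Kcna2 stood at rank 10, at 18.1 ± 3.76, overlapping with Kcnmb3 above it, at 21.3 ± 5.09. Kcnk5, at 2.62 ± 1.41, and Kcnf1, at 1.34 ± 0.45, stood at ranks 20 and 23 of the 24 genes whose mean normalized read count was at least 10 in either group. Neighbours in rank overlapped throughout that lower part.

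In knockout cells Kcnf1 moved from rank 23 to 3 and Kcna2 from 10 to 8. Other low genes also changed rank, such as Kcnk5 from 20 to 13 and Kcnh5 from 16 to 24. Kcnf1 stood at rank 3, at 231 ± 107 normalized reads per kilobase (SD, n = 3), and its range overlapped with those of Kcnmb4, at 236 ± 17.2, and Kcnj13, at 222 ± 37.1. Kcna3 was again first, at 889 ± 118, and Kcnn4 at rank 5, at 115 ± 7.09. With the longest transcript Kcnf1 was at rank 2 and Kcnn4, at 63.0, at rank 7. Kcna2 stood at rank 8, at 59.1 ± 13.2, which overlapped with Kcnh2 above it, at 72.8 ± 9.54, and no longer with the gene below it. Among 18603 rows with a transcript length, 22.8% were below Kcnf1 in the wild-type mean and 67.8% in the knockout mean. For Kcna2 the shares were 44.1% and 54.8%, for Kcna3 83.7% and 86.4%, and for Kcnn4 61.2% and 60.9%.

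**Figure D3:**
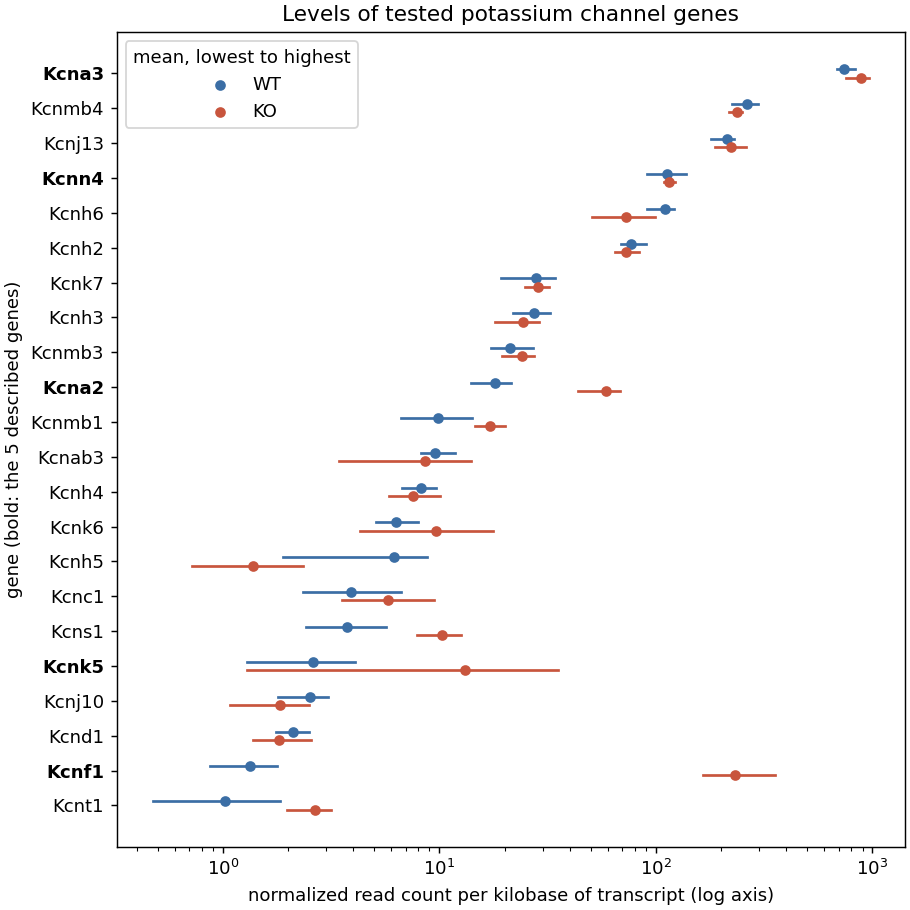
Normalized read count per kilobase of transcript of 22 tested potassium channel genes, on a log axis, ordered by the wild-type mean; points are group means and lines run from the lowest to the highest of 3 libraries (blue WT, red KO). Kcnf1 goes from 1.34 to 231 and Kcna2 from 18.1 to 59.1, while Kcna3 is highest in both groups.

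As a share of the summed normalized read count of all 58 potassium channel genes with a row, Kcnf1 took 0.121% to 0.206% in wild-type libraries and 14.7%, 31.2% and 14.5% in KO1, KO2 and KO3. Kcna3 took 37.8% to 38.3% in wild-type and 26.3% to 33.7% in knockout libraries. The sum itself was 3461 to 4120 in wild-type and 5379 to 5757 in knockout libraries. A share falls when another gene of the sum grows, so the lower share of Kcna3 stands beside its own values given above. The shares are not corrected for transcript length, and the paired transcript has 4789 bases for Kcnf1 and 1902 for Kcna3. They do not order the 2 genes by level. Per kilobase Kcnf1 was at most 355 and Kcna3 at least 753 in the knockout libraries.

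The other silent subunits were low in both groups. Of 9 listed genes besides Kcnf1, 5 had a row and Kcns1 (Kv9.1) was tested. It was at 8.37, 6.60 and 15.4 in WT1, WT2 and WT3 and at 21.4, 27.7 and 34.3 in KO1, KO2 and KO3, so its groups did not overlap. The difference of 1.42 on the log2 scale (SE 0.44) did not pass over all rows (limma adjusted p 0.209). Kcng2, Kcng3, Kcng4 and Kcnv2 had means of 5.55 or below in both groups.

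Beyond the 6 listed genes, 53 of 88 listed potassium channel genes had a row, 18 were tested and limma called 0 of them, against 1.51% of all tested rows. With voom weights on recovered reads 0 were called too. In limma 5 of the 18 had an unadjusted p under 0.05, and 1651 of all 13022 rows did. Their log2 fold changes ran from -1.86 to 1.42 with a median of -0.01, and the median over all tested rows was 0.00187. In 3 of the 18 all knockout values lay above all wild-type values, and in 0 below, against 9.21% and 9.58% of all tested rows. Of the 3, Kcnt1 passed the filter only through its knockout libraries, with a mean of 6.00 in wild-type and 15.7 in knockout. Kcnh5, among the 5 by p, passed only through its wild-type libraries (25.1 and 5.59). Nothing is read from these counts. Leaving out KO3 gave 1 call, a fall of Kcnh6, where 4.3% of tested rows were called.

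**Figure D4:**
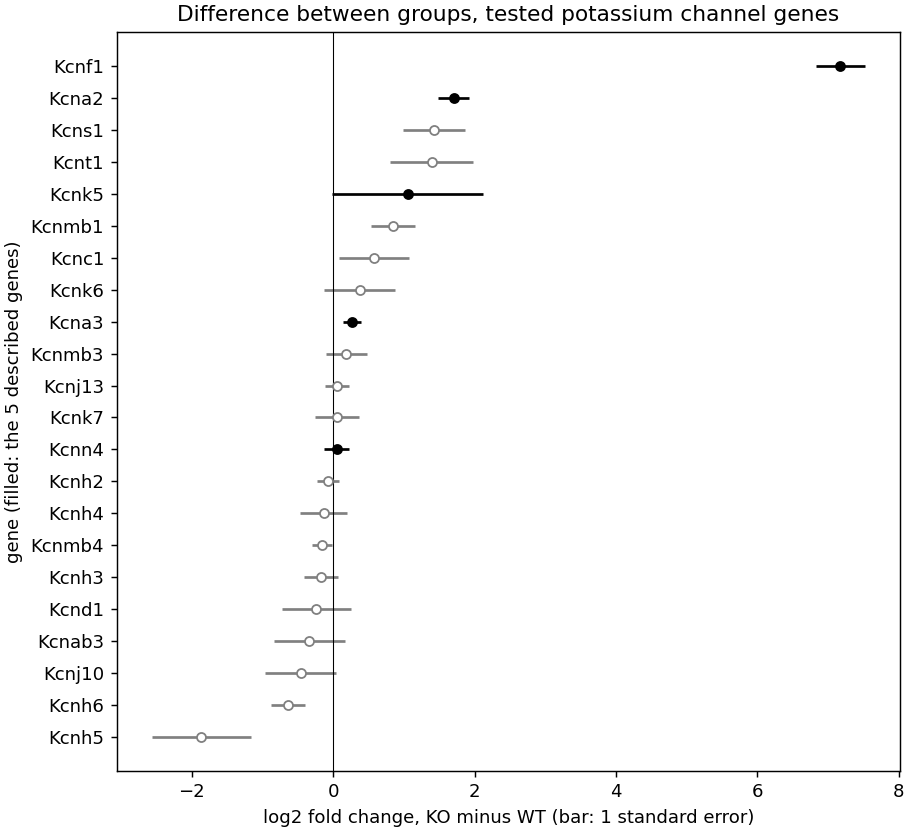
Log2 fold change (KO minus WT, bars 1 standard error, 3 libraries per group) of 22 tested potassium channel genes, in order of size; filled points are the 5 described members, which were picked with these values known. Kcnf1 is at 7.17 and Kcna2 at 1.70, and the 17 others lie between -1.86 and 1.42.

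Among the other voltage-gated pore subunits, 14 of 20 listed had a row and 7 were tested, 0 of them called by limma or with voom weights, and 2 had an unadjusted p below 0.05. Both were of the eag family. Kcnh6 was at 307, 398 and 409 in WT1, WT2 and WT3 and at 231, 170 and 334 in KO1, KO2 and KO3 (log2 fold change -0.64, SE 0.24, limma adjusted p 0.311). KO3 lay inside the wild-type range, and without it the log2 fold change was -0.89 (limma adjusted p 0.0313). Kcnh5 was at 32.1, 7.70 and 35.5 in wild-type libraries and at 4.28, 2.91 and 9.56 in knockout libraries (limma adjusted p 0.308). Kcnh2, the channel of cardiac repolarization, was at 323 ± 48.0 and 307 ± 40.3 (SD, n = 3 per group).

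Of the calcium- and sodium-activated genes besides Kcnn4, 8 of 11 had a row and 4 were tested. Calls by limma or with voom weights were 0, and 2 genes had an unadjusted p below 0.05. These were Kcnmb1, at 36.3, 59.4 and 27.8 in wild-type and 84.2, 69.9 and 61.4 in knockout libraries (limma adjusted p 0.303), and the sodium-activated channel Kcnt1, at 2.79, 4.40 and 10.8 and then 18.6, 11.7 and 16.7 (limma adjusted p 0.369). Their knockout values lay above all wild-type values, and Kcnt1 passed the filter only through its knockout libraries. Kcnmb4 was at 361 ± 50.8 and 322 ± 23.5 (SD, n = 3 per group).

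The remaining families held no limma call and no unadjusted p under 0.05. Of the tandem-pore genes besides Kcnk5, Kcnk6 had a log2 fold change of 0.37 (SE 0.50) and Kcnk7 of 0.05 (SE 0.31). Of the inward rectifiers Kcnj13 had 0.06 (SE 0.17) and Kcnj10 -0.46 (SE 0.50). Kcnab3, the beta subunit with a row, was at 20.9, 22.0 and 30.1 in wild-type and 35.7, 8.74 and 20.7 in knockout libraries. None of the 5 accessory subunit genes with a row reached a mean of 10 across libraries.

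Proteins that regulate Kcnn4 and Kcna3 were followed as a list of 11, of which 10 were tested and 1 rose, against 1.19% of all tested rows. An unadjusted p below 0.05 in limma was found for 3 of them, and for 1651 of all 13022 rows. Pik3c2b, a lipid kinase whose product is needed for KCa3.1 to open, was at 335, 355 and 327 in WT1, WT2 and WT3. It was at 685, 542 and 505 in KO1, KO2 and KO3, all above the wild-type libraries (log2 fold change 0.76, SE 0.14, limma adjusted p 0.0361). The call ended with voom weights, with the replicate block, without the mean-variance trend, under quantile normalization, without each of WT1, WT2, WT3, KO1 and KO2, and in the libraries with nearly no Y-linked reads. Nme2, a histidine kinase that activates KCa3.1, was at 1652 ± 111 and 1239 ± 162 (SD, n = 3 per group) without passing (limma adjusted p 0.168). Its knockout values lay below all wild-type values. That order held for 2 of the 10 regulator genes and the reverse for 1, against 9.58% and 9.21% of all tested rows.

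Calcium entry genes, which depend on the potential that potassium channels set, held 0 calls among 5 tested, in limma and with voom weights, and 1 had an unadjusted p below 0.05. Orai1, the pore of the store-operated channel, was at 1273 ± 34.6 and 1029 ± 136 (SD, n = 3 per group), with a limma adjusted p of 0.295 for a log2 fold change of -0.31 (SE 0.11). Its knockout values lay below all wild-type values. That order held for 1 of the 5 calcium entry genes and the reverse for 0, against 9.58% and 9.21% of all tested rows. Stim2, a sensor of the calcium store, was at 3665 and 3484 in the group means. Of 25 other ion channels and pumps 21 were tested, with 0 calls in limma and with voom weights and an unadjusted p below 0.05 for 2. Among these 21 genes, knockout values lay above all wild-type values in 3 and below in 3. Lrrc8b, a subunit of the volume-regulated anion channel, was at 364 ± 39.8 and 491 ± 5.36 (limma adjusted p 0.166).

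The genes around Kcnf1 had far smaller differences than Kcnf1. Of 10 genes with a row within 1 Mb, 9 were tested, with log2 fold changes of -0.38 to 0.59. Calls were 0 in limma and with voom weights, and 1 gene had an unadjusted p below 0.05. On the side of lower coordinates the nearest tested genes were Pqlc3, 172 kb away, the kinase gene Rock2, 184 kb away, and E2f6, 345 kb away. Pqlc3 was at 669 ± 55.4 and 1007 ± 114 (SD, n = 3 per group), with groups that did not overlap (log2 fold change 0.59, SE 0.12, limma adjusted p 0.0587). It was called without KO3, under total count scaling and with the rows of each symbol summed. Rock2 had a log2 fold change of 0.11 (SE 0.11) and E2f6 of 0.33 (SE 0.29). On the other side Pdia6, an enzyme of protein folding 89.7 kb away, was at 3297 ± 153 and 3288 ± 559, Nol10 had 0.13 (SE 0.13), and the microRNA gene Mir3066, inside Nol10, had 0.14 (SE 0.59).

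**Figure D5:**
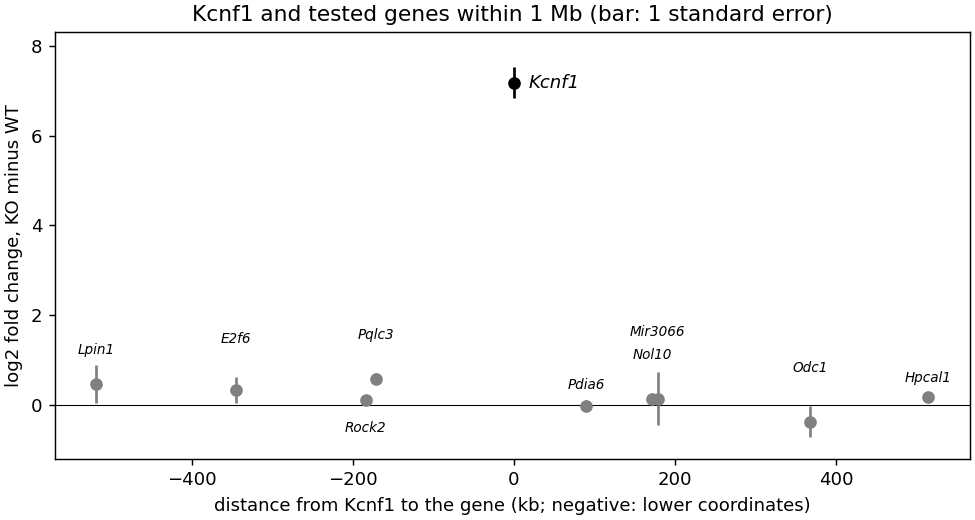
Log2 fold change (KO minus WT, bars 1 standard error, 3 libraries per group) of Kcnf1 and of the 9 tested genes within 1 Mb, by distance in kb between the gene bodies. Kcnf1 is at 7.17 and its neighbours lie between -0.38 and 0.59.

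Around Kcna2, which was looked at after its values were seen, 30 genes had a row within 1 Mb, Kcna3 included. Of these 18 were tested, Kcna3 among them, which as a member has no p-value here. Of the others 5 had an unadjusted p below 0.05, and 1651 of all 13022 rows did. Cd53 was lower in the knockout, and AI504432, Slc16a4, Ahcyl1 and Gstm1 were higher. The non-coding gene AI504432 lies between Kcna3 and Kcna2, on the same strand. It was at 4983 ± 136 and 6228 ± 377 (SD, n = 3 per group), with groups that did not overlap (log2 fold change 0.32, SE 0.08), and its limma adjusted p of 0.138 was the smallest among these neighbours. Kcna10, a Kv1 gene beyond Kcna2, had at most 1 read in any library.

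The genes whose pattern over the 6 libraries was most like that of Kcnf1 were Ramp3, a receptor accessory protein (Pearson r 0.997), Tubb3, the neuronal beta tubulin (0.996), Zfp53, a zinc finger gene (0.996), Vmn2r96, a vomeronasal receptor (0.995), and Cnr1, the cannabinoid receptor (0.995). These correlations of log2 values across 6 libraries are a description and follow largely from the gap between the groups. All 5 were called in limma, which follows largely from their choice by likeness to Kcnf1, so nothing is read from that count. Ramp3 was at 306 to 341 in wild-type and at 1028, 1268 and 1023 in KO1, KO2 and KO3. Cnr1 was at 0.77 or below in wild-type and at 278, 1752 and 786 in these knockout libraries. KO2 was the highest for both, as for Kcnf1. For Kcna3 the 5 most alike were Sephs1 (0.992), Vrk2 (0.986), Il17ra (0.98), Brpf1 (0.979) and Tigit (0.979), and limma called none of them.

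Neuronal genes were followed because Kcnf1 is best known from neurons. Of 10 listed 5 had a row and 2 were tested, of which Tubb3 rose, against 1.19% of all tested rows. Tubb3 is also among the genes most like Kcnf1 named above, and with 2 tested genes nothing is read from that count. Its mean was 44.3 ± 8.48 in wild-type and 325 ± 30.7 in knockout libraries (SD, n = 3 per group), which is 2.86 on the log2 scale (SE 0.19) with a limma adjusted p of 0.000139. Syp, a synaptic vesicle protein, was at 97.0 and 106 in the group means. Map2, Stmn2 and Elavl4 were at 4.28 or below in every library. The summed level, Tubb3 included, was 123 to 166 in wild-type and 419 to 444 in knockout libraries.

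T cell states known to carry different amounts of Kcna3 and Kcnn4 were followed as 17 tested activation and memory genes, of which Il2ra, a receptor chain for interleukin-2, rose, against 1.19% of all tested rows, and 3 had an unadjusted p below 0.05. Il2ra was at 151 to 188 in wild-type libraries and at 358, 373 and 714 in KO1, KO2 and KO3 (limma adjusted p 0.0326). That call ended with voom weights, without the mean-variance trend, without each of WT1, WT2, WT3 and KO2, and in the libraries with nearly no Y-linked reads. Cd69, an early activation marker, had group means of 13510 and 9800 and did not pass (limma adjusted p 0.146). Its knockout values lay below all wild-type values. That order held for 1 of the 17 genes and the reverse for 2, against 9.58% and 9.21% of all tested rows. The summed level of the list was 25180 to 27990 in wild-type and 23750 to 30930 in knockout libraries, highest in KO3. The naive list had 11 tested genes, with 0 calls in limma and with voom weights and 4 at an unadjusted p below 0.05. In 4 of the 11 all knockout values lay below all wild-type values, and in 0 above. Of 9 tested genes of regulatory T cells limma called 2, Nrp1, a semaphorin receptor, and Il2ra, against 1.51% of all tested rows. In limma 6 of the 9 had an unadjusted p below 0.05, and 1651 of all 13022 rows did. In 6 of the 9 all knockout values lay above all wild-type values, and in 0 below, against 9.21% and 9.58% of all tested rows. Ikzf4, a transcription factor, had group means of 155 and 364 (limma adjusted p 0.0888). Foxp3, the factor that defines regulatory T cells, was at 2.39 to 11.4 in all libraries, and Capg had group means of 51.6 and 41.7. Nrp1 was at 334 to 397 in wild-type and 4137 to 4794 in knockout libraries, and the list, Nrp1 included, summed to 2819 to 3171 in wild-type and to 8060 to 10320 in knockout libraries. The part of these states in the channel values was not tested.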

How the data were processed

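Per the labels' protocols, RNA of 3 libraries per genotype was purified on miRNeasy columns, treated with DNase and sequenced in pairs of 100 bases. The tools STAR, HTSeq and DESeq2 and the build mm10 are named, without versions or roles, per the submitters' processing notes. The authors deposited 1 table with a log10 value for each row and library. Turned back as 10 to their power minus 1, all were whole multiples of a step that each library has (tolerance 0.01), so each is the log10 of 1 plus reads over a size factor. Rows were named from RefSeq (18811) and GENCODE release M21 (104). For a symbol with several rows the highest total was used. No source used here gives the strand of the library kit.

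Rows with a mean of at least 10 were tested with limma 3.58.1 in R 4.3.3, with trend, on log2 of the normalized count plus a pseudocount of 1, which understates changes of low genes. A call is a two-sided Benjamini-Hochberg adjusted p under 0.05 over all 13022 rows. Unadjusted p-values are those of this limma test. Count models were not run on log10 values; voom weights on the recovered reads were an alternative, as were other scalings, filters, pseudocounts, a replicate block and leaving out each library. Results of a few genes are not reported here. The script was tested on simulated data. Members and gene lists were chosen with earlier results of these data known. Named genes were all members, 2 genes by p and 2 by mean per channel list, up to 3 by p per other list, the nearest neighbours of Kcnf1 and the 5 most alike genes. Transcript lengths and sequences came from GENCODE release M21 and RefSeq (GRCm38.p6). Libraries with equal numbers in both groups were not paired: their deviations correlated at -0.312, 0.256 and 0.363.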

Additional observations from a re-analysis of the deposited data

How the results depend on the processing

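All alternatives were planned except the comparison limited to the 2 against 2 libraries with nearly no Y-linked reads, which was chosen after the data were seen. The log2 fold changes of Kcnf1, Kcna2 and Kcna3 were positive in all 19 settings, from 6.53 to 7.37, 1.53 to 1.90 and 0.20 to 0.38. Kcnn4 was positive in 16 of 19 and ran from -0.10 to 0.20. Kcnk5 was positive in the 17 settings that tested it, from 0.67 (without WT2) to 1.98, and was not tested without KO3 or at a mean of at least 50. The Kcnf1 value was 6.53 with a pseudocount of 5 and 6.58 in the libraries with nearly no Y-linked reads, and 6.82 to 7.37 with 1 library left out. With the longest annotated transcript as length, Kcnn4 was at 61.8 normalized reads per kilobase in wild-type cells. The number of rows called was 196, 175 with the replicate block (which ended the Pik3c2b call), 124 without the mean-variance trend, 37 in the libraries with nearly no Y-linked reads, and 113 (without KO2) to 553 (without KO3) with 1 library left out. Other potassium channel genes called were 0 to 1 with 1 library left out. Regulator and ion transport genes called, 1 in the main setting, were 2 with total count scaling, 0 without the trend, 0 with the replicate block, 0 with voom weights, 0 in the libraries with nearly no Y-linked reads, and 0 to 2 with 1 library left out. Neighbours of Kcnf1 called, 0 in the main setting, were 1 with total count scaling, 1 with rows summed, and 0 to 1 with 1 library left out. The causes were not tested. With 3 to 11 wild-type reads per library, counting error limits how well the Kcnf1 ratio is known.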
